A study of Caenorhabditis elegans with 6 samples.

Results

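The respiratory chain genes described here are the nuclear C. elegans genes whose WormBase symbol begins with nuo-, nduf-, sdha-, sdhb-, sdhd-, ucr-, cox- or atp- followed by a digit, together with gas-1, mev-1, isp-1 and cyc-1. The choice used symbols and no measured value. It took 44 of the 46778 genes listed in the count tables, and 43 of the 44 had enough reads to be tested, beside 15950 genes tested in all. The member left out was cox-17, a copper chaperone of cytochrome c oxidase assembly, which reached at most 0.287 CPM. By complex, 13 members belong to complex I, 5 to complex II, 7 to complex III, 14 to complex IV (7 subunits and 7 assembly factors) and 5 to complex V.

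RNA was sequenced from whole worms harvested as L4 larvae, and each of 5 groups had 2 libraries. The groups were scav-4(unk59) mutants fed Microbacterium sp. JUb74, scav-4(unk49) mutants fed E. coli OP50, scav-4(unk59) mutants fed OP50, wild-type worms fed JUb74 and wild-type worms fed OP50. OP50 is the standard laboratory food, the series title calls the Microbacterium food rich in branched chain fatty acids, and scav-4 encodes a relative of the mammalian scavenger receptor CD36. All worms were put on the bacteria as L1 larvae after bleaching. What the alleles change, and if same-group libraries derive from independent cultures, is not stated in the labels, so n = 2 counts libraries and the p-values measure a spread that may be technical.

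The respiratory chain passes electrons from NADH (complex I) and succinate (complex II) through ubiquinone to complex III and on to complex IV, which reduces oxygen. Complexes I, III and IV pump protons across the inner mitochondrial membrane, and complex V, the ATP synthase, uses the gradient to make ATP. In the worm, several subunits are encoded both by an X-linked gene and by an autosomal duplicate, and the mutants gas-1 (complex I), mev-1 (complex II) and isp-1 (complex III) are known for altered respiration and life span.

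Gene counts per library ran from 21937088 to 22692632 pairs, so depth hardly differed between groups. scav-4 itself had 6.04 and 7.16 CPM in unk49 worms on OP50, against 47.3 and 36.1 CPM in wild-type worms on OP50 (log2 fold change -2.66, adjusted p = 0.00213). In unk59 worms it had 39.3 and 38.3 CPM on OP50, close to wild type on that food, and 38.1 and 31.2 CPM on JUb74, against 33.1 and 9.93 CPM in wild-type worms on JUb74. CPM is the count per 1000000 pairs assigned to genes, scaled between libraries with TMM factors. In such bulk RNA, fewer cells of a type and less RNA per cell cannot be told apart. The groups differed in markers of reproductive and of somatic tissues, and those values are given beside the genes they move with.

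Most members differed little between the 10 libraries. For 39 of the 43 tested members the library with the highest CPM was at most 2.5 times the lowest. The other 4 were ucr-2.3 with a ratio of 28.2, nduf-2.2 with 10.97, sdha-2 with 10.2 and cox-19 with 3.94. Together the members took between 1.47% and 1.87% of the gene counts of a library. Per length, the F1 subunits of ATP synthase led, with atp-2 (beta subunit) at 1806 ± 311 TPM and atp-1 (alpha subunit) at 1484 ± 254 TPM (SD over 10 libraries). At the other end stood cox-10, which makes heme O for complex IV, at 13.8 ± 2.75 TPM and sdha-2 at 18.6 ± 15.4 TPM, apart from cox-17 at 0.402 ± 0.287 TPM.

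The 7 comparisons differed in how many members passed the test at an adjusted p of 0.05. JUb74 against OP50 in unk59 worms called 4 members higher (9.30% of the 43, where 33.5% of all genes were called higher) and 13 lower (30.2%, against 26.3% of all genes). In wild-type worms JUb74 called 0 members higher (2.65% of all genes) and 3 lower (6.98%, against 6.29% of all genes). On JUb74, unk59 against wild type called 8 members higher (18.6%, against 33.0% of all genes) and 1 lower (2.33%, against 26.1% of all genes). On OP50, unk49 against wild type called 4 higher (9.30%, against 27.2% of all genes) and 5 lower (11.6%, against 19.1% of all genes). Set against unk59 on OP50, unk49 called 3 higher (6.98%, against 30.2% of all genes) and 11 lower (25.6%, against 23.8% of all genes). For unk59 against wild type on OP50, edgeR called 0 members, where 0% of all genes were called higher and 0.0125% lower. There 3 members had an unadjusted p under 0.05, as did 1845 of the 15950 genes. DESeq2 called 2 members, sdha-2 and ucr-2.3, both lower, and over all 15031 genes it tested 17 higher and 419 lower. The interaction of diet and genotype called 3 members higher (6.98%, against 23.3% of all genes) and 0 lower (19.97% of all genes). These comparisons share libraries with each other, so their results are given side by side and not as repeats. The members' shares of falls on JUb74 in both genotypes and in unk49 against unk59 were near those of all genes, and their other shares were lower, apart from the comparison of unk59 with wild type on OP50 in which almost nothing was called.

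**Figure D1:**
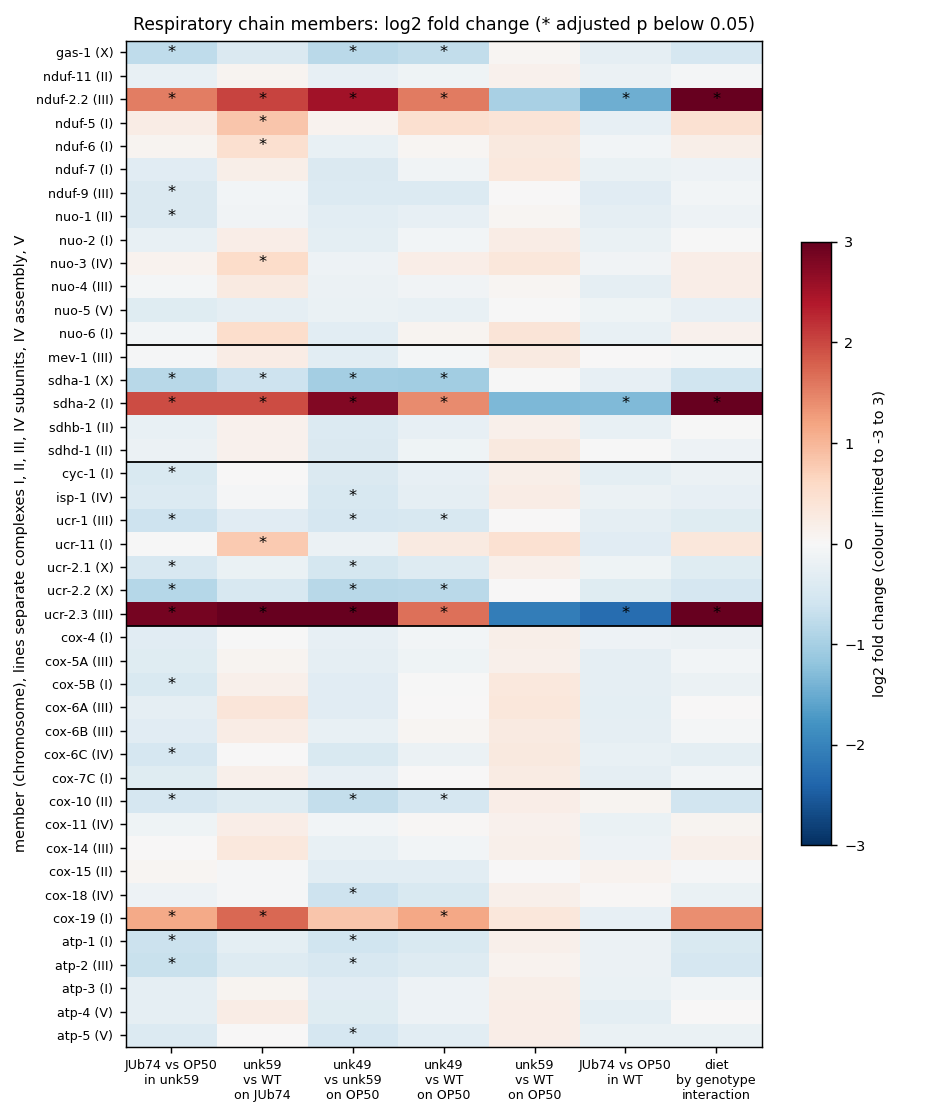
Log2 fold change of the 43 tested members (rows, with chromosome, grouped by complex) in the 7 comparisons (columns). Red is higher and blue lower in the first-named group, colour is limited to -3 to 3, and a star marks an adjusted p below 0.05. The rows nduf-2.2, sdha-2 and ucr-2.3 carry the strongest colours, and gas-1, sdha-1, ucr-2.1 and ucr-2.2 are blue for JUb74 in unk59 worms and for unk49 against either OP50 group.

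The members that moved most were autosomal duplicates of X-linked subunit genes. nduf-2.2 (WBGene00006463) encodes a second form of a complex I subunit beside gas-1 (WBGene00001520), sdha-2 (WBGene00016392) a second flavoprotein of complex II beside sdha-1 (WBGene00015391), and ucr-2.3 (WBGene00020757) a further form of core protein 2 of complex III beside ucr-2.1 (WBGene00012158) and ucr-2.2 (WBGene00011679). In the WBcel235 annotation nduf-2.2 lies on chromosome III from 6465222 to 6467206, sdha-2 on chromosome I from 10683270 to 10685587 and ucr-2.3 on chromosome III from 879860 to 881458. All of their partners lie on the X: gas-1 from 15586786 to 15590397, sdha-1 from 8542757 to 8546021, ucr-2.1 from 12018429 to 12021206 and ucr-2.2 from 15173904 to 15178145. These 4 are the only members on the X among the 44. The counts cover whole genes, exons and UTRs together, and leave out reads that map to several places.

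nduf-2.2 had 24.4 and 43.2 CPM in unk59 worms on JUb74, 77.5 and 57.1 CPM in unk49 worms on OP50, 12.9 and 10.5 CPM in unk59 worms on OP50, 7.06 and 9.38 CPM in wild-type worms on JUb74 and 20.4 and 25.3 CPM in wild-type worms on OP50. Both unk49 libraries lay above all others, and the unk59 libraries on OP50 and the wild-type libraries on JUb74 lay lowest. On JUb74 against OP50 it rose in unk59 worms (log2 fold change 1.53 ± 0.30 SE, adjusted p = 0.00222) and fell in wild-type worms (-1.47 ± 0.31, adjusted p = 0.0262). It was 4.11-fold higher in unk59 than in wild-type worms on JUb74 and 2.94-fold higher in unk49 than in wild-type worms on OP50.

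sdha-2 had 34.3 and 53.3 CPM in unk59 worms on JUb74, 94.7 and 57.8 CPM in unk49 worms on OP50, 13.1 and 9.26 CPM in unk59 worms on OP50, 9.56 and 12.9 CPM in wild-type worms on JUb74 and 27.1 and 29.8 CPM in wild-type worms on OP50. The unk49 libraries again lay highest, and the lowest pair of groups, unk59 on OP50 and wild type on JUb74, overlapped. Both unk59 libraries on JUb74 lay above both wild-type libraries on OP50, whereas for nduf-2.2 these groups overlapped. Its log2 fold change on JUb74 against OP50 was 1.97 ± 0.32 in unk59 worms (adjusted p = 0.000785) and -1.34 ± 0.32 in wild-type worms (adjusted p = 0.0353). On JUb74 it was 3.89-fold higher in unk59 than in wild-type worms, and on OP50 2.68-fold higher in unk49 than in wild-type worms.

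ucr-2.3 had 31.5 and 45.9 CPM in unk59 worms on JUb74, 87.9 and 52.0 CPM in unk49 worms on OP50, 6.80 and 3.87 CPM in unk59 worms on OP50, 3.12 and 6.03 CPM in wild-type worms on JUb74 and 20.5 and 24.2 CPM in wild-type worms on OP50. It spanned the widest range of any tested member. On JUb74 against OP50 it was 7.26-fold higher in unk59 worms (log2 fold change 2.86 ± 0.41, adjusted p = 0.000422) and 4.86-fold lower in wild-type worms (-2.28 ± 0.41, adjusted p = 0.0219). It shares 16 exon bases with zer-1 on the opposite strand, and with the counts of a single strand column the wild-type value was -1.402 and the unk59 value 2.02, both still past the threshold. On that column the values of unk59 against wild type on JUb74 and of the interaction were 2.07 and 3.42, where the unstranded counts gave 3.07 and 5.14.

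For these genes the effect of the diet differed between unk59 and wild-type worms. The interaction (the change on JUb74 in unk59 worms minus that in wild-type worms) was 5.14 ± 0.58 for ucr-2.3 (adjusted p = 0.000216), 3.30 ± 0.45 for sdha-2 (adjusted p = 0.000472) and 3.004 ± 0.43 for nduf-2.2 (adjusted p = 0.000591), on the log2 scale. Each stayed past the threshold under all 8 other settings and with each of the 10 libraries left out. Of all genes tested, 87.5% had a lower interaction value than ucr-2.3, 83.3% a lower one than sdha-2 and 82.4% a lower one than nduf-2.2. The falls in wild-type worms were less firm, and their calls were lost without any of the 4 wild-type libraries. Such a fit leaves 1 library in a group, and most calls over all genes were lost in it too. The falls kept their sign there, at -1.85 to -1.29 for nduf-2.2, -1.72 to -1.14 for sdha-2 and -2.99 to -1.90 for ucr-2.3. The fall of sdha-2 was also lost without the first or the second unk59 library on JUb74 (adjusted p = 0.0516 and 0.0539).

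unk49 against wild type on OP50 also rested partly on a single library. Its log2 fold changes were 1.56 ± 0.30 for nduf-2.2, 1.42 ± 0.31 for sdha-2 and 1.65 ± 0.38 for ucr-2.3, with adjusted p of 0.00320, 0.00570 and 0.00760. Without the first unk49 library, sdha-2 was at 0.88 (adjusted p = 0.0541) and ucr-2.3 at 1.08 (adjusted p = 0.0683), and without the first wild-type library on OP50 ucr-2.3 was at 1.53 (adjusted p = 0.0621). Against unk59 on OP50, the rises in unk49 were 2.52, 2.77 and 3.72 in the same order, and all were called with each library left out. In unk59 against wild type on OP50 the values were -0.96, -1.34 and -2.07, with adjusted p of 0.269, 0.187 and 0.156.

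**Figure D2:**
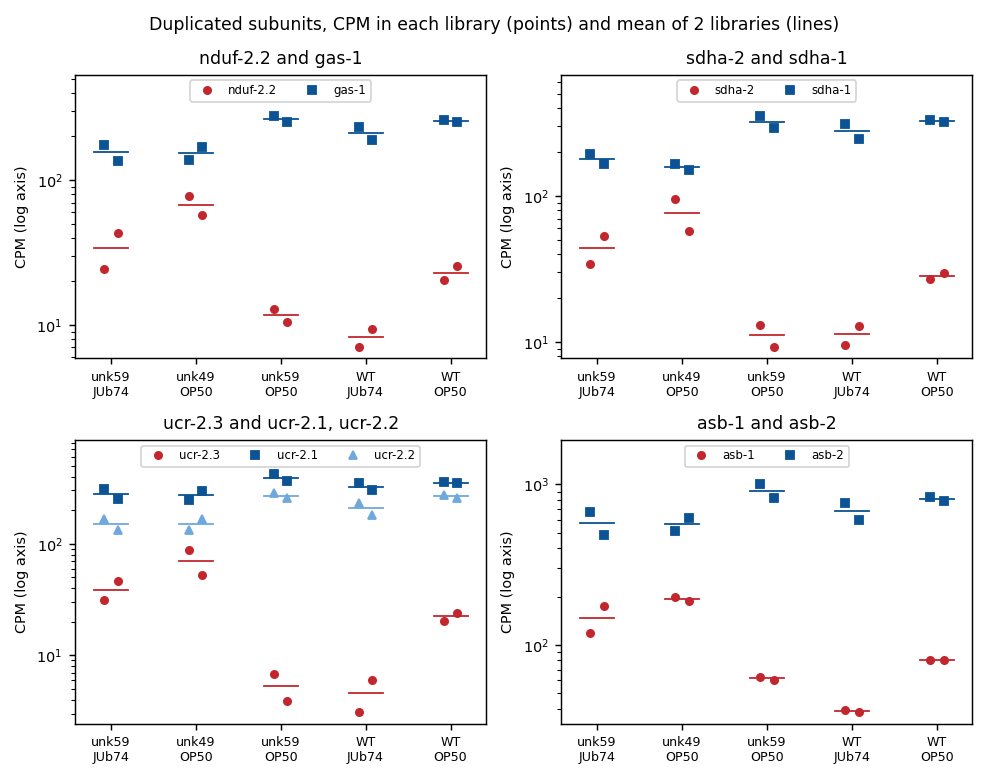
CPM (log axis) of autosomal copies (red circles) and their X-linked partners (blue squares and triangles) in each of 2 libraries per group, with lines at the mean. nduf-2.2, sdha-2 and ucr-2.3 are highest in unk49 worms on OP50 and lowest in unk59 worms on OP50 and wild-type worms on JUb74, while the X-linked genes have their lowest means in unk59 worms on JUb74 and unk49 worms on OP50. asb-1 and asb-2, an ATP synthase pair outside the rule for members, are drawn beside them.

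The X-linked partners were lower where their copies were higher, in unk59 worms on JUb74 and in unk49 worms on OP50. For JUb74 in wild-type worms they had values of -0.36 to -0.13, the same sign as their copies, and for unk59 against wild type on OP50 values of -0.02 to 0.14, with 0 called in either. gas-1 had 176 and 135 CPM in unk59 worms on JUb74, 137 and 169 CPM in unk49 worms on OP50, 278 and 253 CPM in unk59 worms on OP50, 234 and 188 CPM in wild-type worms on JUb74 and 259 and 253 CPM in wild-type worms on OP50. The unk59 libraries on JUb74 and the unk49 libraries overlapped each other and lay below all the rest. gas-1 fell by 0.77 ± 0.20 (log2) on JUb74 in unk59 worms (adjusted p = 0.00876), was at -0.28 ± 0.20 in wild-type worms (adjusted p = 0.437), and fell by 0.74 ± 0.20 in unk49 against wild type on OP50 (adjusted p = 0.0145). The fall in unk59 worms was at -0.61 without the second unk59 library on JUb74 (adjusted p = 0.0584). The fall in unk49 was at -0.73 without the first wild-type library on OP50 and -0.77 without the second (adjusted p = 0.0768 and 0.0650).

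sdha-1 had 195 and 166 CPM in unk59 worms on JUb74, 166 and 152 CPM in unk49 worms on OP50, 354 and 293 CPM in unk59 worms on OP50, 310.5 and 244 CPM in wild-type worms on JUb74 and 334 and 323 CPM in wild-type worms on OP50. It was the only member called lower in unk59 than in wild-type worms on JUb74 (log2 fold change -0.62 ± 0.19, adjusted p = 0.0183). Without the first wild-type library on JUb74 that value was -0.43 (adjusted p = 0.118), and without the second unk59 library on JUb74 -0.48 (adjusted p = 0.124). In unk49 against wild type on OP50 it was 2.07-fold lower, the largest fall of a member there.

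ucr-2.2 had 167 and 132 CPM in unk59 worms on JUb74, 134 and 167 CPM in unk49 worms on OP50, 283 and 255 CPM in unk59 worms on OP50, 233 and 181 CPM in wild-type worms on JUb74 and 273 and 257 CPM in wild-type worms on OP50. It fell by 0.85 ± 0.20 (log2) on JUb74 in unk59 worms (adjusted p = 0.00589) and by 0.82 ± 0.20 in unk49 against wild type on OP50 (adjusted p = 0.0101). Without the first wild-type library on OP50 the value in unk49 was -0.78 (adjusted p = 0.0649). ucr-2.1, the most abundant of the core protein 2 genes, ranged from 245 to 417 CPM and fell by 0.48 ± 0.19 in unk59 worms on JUb74 (adjusted p = 0.0490), a call that held in 1 of 8 other settings. Genes of the X in general lay lower in these comparisons. The median log2 fold change of the 2255 X-linked genes tested was -0.52 for JUb74 in unk59 worms, -0.49 for unk49 against wild type on OP50 and -0.51 for unk59 against wild type on JUb74, against 0.18, 0.22 and 0.18 for the 13635 autosomal genes. For the 4 X-linked members the medians were -0.81, -0.78 and -0.46.

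Read counts show how far the balance within each pair shifted. nduf-2.2 made up 12.2% (95% exact Clopper-Pearson interval 11.3 to 13.2) and 24.2% (22.9 to 25.5) of the reads of nduf-2.2 and gas-1 in unk59 worms on JUb74, and 36.1% (34.8 to 37.5) and 25.3% (24.1 to 26.5) in unk49 worms on OP50. In unk59 worms on OP50 it made up 4.42% and 4.001%, in wild-type worms on JUb74 2.93% and 4.76%, and in wild-type worms on OP50 7.29% and 9.11%. The X-linked gene thus remained the more abundant of the pair in every library, also per length, where nduf-2.2 reached at most 39.1% of the pair. sdha-2 ranged from 2.99% of the pair's reads in a wild-type library on JUb74 to 36.3% in an unk49 library. ucr-2.3 ranged from 0.536% of the reads of its trio in a wild-type library on JUb74 to 18.8% in an unk49 library. The intervals cover counting error only.

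The balance moved with germline markers. The summed level of 10 germline markers, among them glh-1, pgl-1 and gld-1, was 434 and 716 CPM in unk59 worms on JUb74, 1667 and 793 CPM in unk49 worms on OP50, 92.2 and 40.4 CPM in unk59 worms on OP50, 48.7 and 103.8 CPM in wild-type worms on JUb74 and 290.2 and 347 CPM in wild-type worms on OP50. nos-2 was at 0 in the first unk59 library on OP50 and the first wild-type library on JUb74. Within each of the 5 groups the library with the larger germline sum also had the higher nduf-2.2, sdha-2 and ucr-2.3. For the 12 oocyte and eggshell markers this held in 4 of 5 groups, for the 4 pharyngeal muscle markers also in 4, for hypodermis and neuron markers in 3, for the 12 sperm markers and body wall muscle in 2, for intestine in 1 and for the 6 vitellogenins in 0. gas-1, ucr-2.1 and ucr-2.2 followed the order of the intestine markers in 5 of 5 groups, of the vitellogenins and body wall muscle in 4, and of the germline markers in 1. sdha-1 followed intestine, hypodermis and neuron markers in 4 groups each. With 2 libraries in a group such an order has only 2 outcomes. Oocyte and eggshell markers summed to 1498 and 2244 CPM in unk59 worms on JUb74 and 4797 and 1888 CPM in unk49 worms, against 14.8 to 99.5 CPM in the other 6 libraries. Sperm markers summed to 202 and 200.5 CPM in unk59 worms on JUb74 and 187 and 97.8 CPM in unk49 worms, against 14.9 to 39.2 CPM in the other 6, in 3 of which 2 to 4 of the 12 were at 0. Vitellogenins, the yolk proteins, summed to 14961 and 9721 CPM in unk59 worms on JUb74, 20589.8 and 40439.9 CPM in unk49 worms on OP50, 73.2 and 5410.3 CPM in unk59 worms on OP50, 22.97 and 5.35 CPM in wild-type worms on JUb74 and 4423 and 2058 CPM in wild-type worms on OP50.

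Many somatic markers were lower in the comparisons in which the X-linked members fell, but the lists did not all move alike. In unk59 worms on JUb74 against OP50, 7 of 8 hypodermis and cuticle markers were called lower and 1 higher (median log2 fold change -3.84). Their summed level changed less, with 4031 and 3910 CPM on JUb74 against 4640 and 4506 CPM on OP50. Also called lower were 5 of 8 body wall muscle, 5 of 6 intestine and 4 of 8 neuron markers (medians -1.19, -0.94 and -0.60). Of the 4 pharyngeal muscle markers, 0 were called lower and 1 higher (median -0.28). Of all genes, 26.3% were called lower there and 33.5% higher. In unk49 against wild type on OP50, 6 hypodermis and cuticle markers were lower and 1 higher. There 4 body wall muscle, 2 intestine, 5 neuron and 1 pharyngeal muscle markers were lower (19.1% of all genes lower and 27.2% higher). In wild-type worms on JUb74, 0 body wall muscle, 0 intestine and 0 pharyngeal muscle markers were called. There 2 hypodermis and cuticle markers were lower and 2 neuron markers higher (6.29% of all genes lower and 2.65% higher). The part of tissue content, germline or somatic, in the members' results was not tested.

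**Figure D3:**
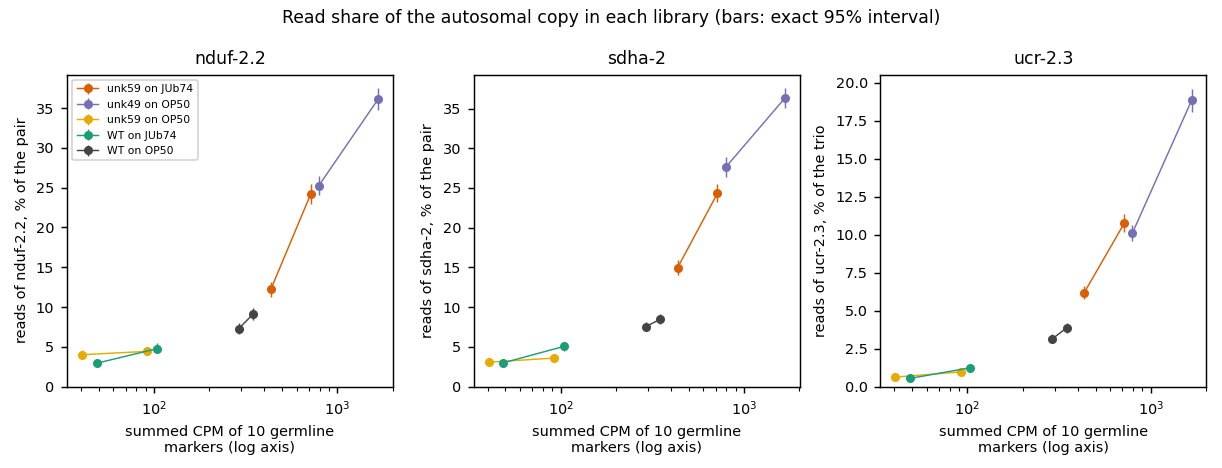
Share of reads from the autosomal copy (percent of the reads of the copy and its X-linked partners, with exact 95% intervals) against the summed CPM of 10 germline markers (log axis), 1 point per library, lines joining the 2 libraries of a group. The share is higher in the library with the larger germline sum in every group, and the 4 libraries of unk59 on JUb74 and unk49 on OP50 lie to the upper right.

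The remaining complex I members had smaller fold changes. In unk59 worms on JUb74 against OP50, nduf-9 (an NDUFA9 homologue) and nuo-1 (the NADH-binding NDUFV1 subunit) were at -0.42 ± 0.16 (adjusted p = 0.0442) and -0.43 ± 0.16 (adjusted p = 0.0455), calls that held in 2 and in 1 of 8 other settings and with 4 of the 10 libraries left out in turn. In unk59 against wild type on JUb74, 3 other subunits rose: nduf-5 (NDUFS5) by 0.84 ± 0.23, nuo-3 (NDUFA6) by 0.55 ± 0.16 and nduf-6 (NDUFS6) by 0.47 ± 0.16, with adjusted p of 0.0125, 0.0151 and 0.0304. nduf-5 had 121 and 117 CPM in unk59 worms on JUb74, against 65.2 and 68.2 CPM in wild-type worms on JUb74. nuo-3 had 232 and 264 CPM in unk59 worms and 172 and 167 CPM in wild-type worms on that food. The calls of nduf-5 were lost without the first wild-type or the first unk59 library on JUb74 (0.81 and 0.82, adjusted p = 0.0601 and 0.0511), that of nuo-3 without the second unk59 library there (0.47, adjusted p = 0.0775), and that of nduf-6 with any of 7 libraries left out. nuo-3 shares 783 exon bases with a gene on the same strand, which leaves its count uncertain. The catalytic core subunits nuo-2 (NDUFS3), nuo-5 (NDUFS1) and nduf-7 (NDUFS7) passed the test in 0 of the 7 comparisons, with log2 fold changes between -0.43 and 0.32.

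In complex II the non-duplicated subunits were not called. mev-1, the cytochrome b subunit, had 191 and 173 CPM in unk59 worms on JUb74, 142 and 157 CPM in unk49 worms on OP50, 198 and 174 CPM in unk59 worms on OP50, 168 and 146 CPM in wild-type worms on JUb74 and 154 and 156 CPM in wild-type worms on OP50. sdhb-1, the iron-sulfur subunit, had 318 and 272 CPM, 276 and 248 CPM, 372 and 321 CPM, 281 and 257 CPM, and 312 and 313 CPM in the same order of groups. sdhd-1, the other membrane anchor, had 177 and 174 CPM, 149 and 143 CPM, 214 and 182 CPM, 178 and 142 CPM, and 163 and 159 CPM. None of mev-1, sdhb-1 and sdhd-1 passed the test in any of the 7 comparisons. Their log2 fold changes lay between -0.43 and 0.30, the lowest being sdhd-1 in unk49 against unk59 on OP50 (adjusted p = 0.0568).

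Of the complex III members apart from the core protein 2 genes, ucr-1 and cyc-1 were called lower on JUb74 in unk59 worms. ucr-1, core protein 1, had 515 and 441 CPM in unk59 worms on JUb74 against 799 and 679.7 CPM in unk59 worms on OP50 (log2 fold change -0.63 ± 0.17, adjusted p = 0.0115). Without the first unk59 library on OP50 that value was -0.51 (adjusted p = 0.0860), and without the second on JUb74 -0.53 (adjusted p = 0.0638). In unk49 worms on OP50 it had 524 and 522 CPM, against 736 and 724 CPM in wild-type worms on OP50 (-0.48 ± 0.17, adjusted p = 0.0463, a call that held in 4 of 8 other settings). isp-1, the Rieske iron-sulfur protein, had 485 and 397 CPM in unk59 worms on JUb74, 414 and 428 CPM in unk49 worms on OP50, 650.2 and 529.9 CPM in unk59 worms on OP50, 498 and 401 CPM in wild-type worms on JUb74 and 504 and 513 CPM in wild-type worms on OP50. It passed the test in unk49 against unk59 on OP50 (-0.49 ± 0.19, adjusted p = 0.0498), in 2 of 8 other settings. cyc-1, cytochrome c1, had 435 and 356 CPM in unk59 worms on JUb74, 393 and 412 CPM in unk49 worms on OP50, 594 and 489 CPM in unk59 worms on OP50, 412 and 379 CPM in wild-type worms on JUb74 and 470.3 and 491 CPM in wild-type worms on OP50. Its value on JUb74 in unk59 worms was -0.45 ± 0.17 (adjusted p = 0.0465), past the threshold in 1 of 8 other settings.

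ucr-11, a small subunit of complex III, rose in unk59 against wild type on JUb74. It had 115.4 and 125 CPM in unk59 worms on JUb74, against 67.0 and 71.5 CPM in wild-type worms on JUb74 (log2 fold change 0.80 ± 0.27, adjusted p = 0.0287). Without any one of these 4 libraries it was between 0.75 and 0.89 and not called (adjusted p between 0.0588 and 0.112). In unk49 worms its libraries differed, with 71.9 and 141 CPM. The second unk49 library was higher than the first also for nduf-5 (80.8 and 139 CPM), nuo-6 (93.3 and 149 CPM) and cox-19 (12.4 and 30.0 CPM). The transcripts of the mitochondrial genome followed the same split, with 4779.9 and 11051 CPM in the unk49 libraries. What separates these libraries was not tested.

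Among the complex IV subunits, 0 of 7 were called in 6 of the 7 comparisons. In unk59 worms on JUb74 against OP50, cox-5B and cox-6C were at -0.45 ± 0.17 (adjusted p = 0.0448) and -0.51 ± 0.19 (adjusted p = 0.0467), each past the threshold in 1 of 8 other settings. The 7 subunits summed to 2742 and 2606 CPM in unk59 worms on JUb74, 2619 and 3029.6 CPM in unk49 worms on OP50, 3530.4 and 3345 CPM in unk59 worms on OP50, 2719 and 2222 CPM in wild-type worms on JUb74 and 3020.4 and 2827 CPM in wild-type worms on OP50. The unk59 libraries on OP50 gave the highest sums and wild-type worms on JUb74 held the lowest one.

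The assembly factors moved apart. cox-19, a twin-cysteine protein of copper delivery to complex IV, had 30.3 and 22.4 CPM in unk59 worms on JUb74, 12.4 and 30.0 CPM in unk49 worms on OP50, 12.9 and 10.9 CPM in unk59 worms on OP50, 8.27 and 7.68 CPM in wild-type worms on JUb74 and 9.67 and 9.32 CPM in wild-type worms on OP50. It rose by 1.72 ± 0.37 (log2) in unk59 against wild type on JUb74 (adjusted p = 0.00327) and by 1.14 ± 0.36 on JUb74 in unk59 worms (adjusted p = 0.0220). The second of these rises was lost without the first unk59 library on JUb74 (0.90, adjusted p = 0.123) and without either unk59 library on OP50 (1.26 and 1.02, adjusted p = 0.0527 and 0.0982). Its rise of 1.16 ± 0.36 in unk49 against wild type on OP50 (adjusted p = 0.0273) held in 6 of 8 other settings. It was at 0.31 without the second unk49 library (adjusted p = 0.294), and was also lost without either wild-type library on OP50 (adjusted p = 0.109 and 0.123). cox-10 fell by 0.71 ± 0.18 in unk49 against unk59 on OP50, with 14.8 CPM in both unk49 libraries against 26.1 and 22.1 CPM in unk59 worms (adjusted p = 0.00894). cox-18, an insertase for complex IV, fell by 0.62 ± 0.19 in the same comparison (adjusted p = 0.0204). With only the groups compared, neither cox-10 nor cox-18 was called (adjusted p = 0.0693 and 0.106), and cox-18 was not called with at least 10 reads in every library or DESeq2 (adjusted p = 0.0744 and 0.0504). Without the first unk59 library on OP50 the values were -0.59 for cox-10 and -0.48 for cox-18 (adjusted p = 0.0776 and 0.150). cox-11, cox-14 and cox-15 were called in 0 of the 7 comparisons, and cox-14 shares 519 exon bases with a gene on the same strand.

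Per length, the complex IV subunits summed to 5193 TPM in the second unk49 library, above the 4873 TPM of complex V. In the second unk59 library on JUb74, complex IV subunits (4832 TPM) and assembly factors (305 TPM) together also exceeded complex V (4908 TPM). In CPM, which is not scaled by length, complex V had a larger sum than any other complex in every library. Its 5 genes summed to 6975 and 5996 CPM in unk59 worms on JUb74, 6964 and 6553 CPM in unk49 worms on OP50, 10474 and 8795 CPM in unk59 worms on OP50, 8636 and 6671.5 CPM in wild-type worms on JUb74 and 8617 and 8806 CPM in wild-type worms on OP50. atp-2 had 2659 and 2262 CPM in unk59 worms on JUb74 against 4306 and 3532 CPM in unk59 worms on OP50, a fall of 0.67 ± 0.18 on the log2 scale (adjusted p = 0.0108). atp-1 had 2394 and 2068 CPM against 3767 and 3179 CPM in these groups, a fall of 0.64 ± 0.18 (adjusted p = 0.0137). Both calls held under all 8 other settings, but not without the first unk59 library on OP50 (-0.53 and -0.52, adjusted p = 0.0844 and 0.0948) or the second on JUb74 (-0.57 and -0.55, adjusted p = 0.0598 and 0.0737). In wild-type worms atp-2 had 3669 and 2768 CPM on JUb74 and 3521 and 3729 CPM on OP50, which overlap (-0.17 ± 0.18, adjusted p = 0.613). The interaction value was -0.50 ± 0.26 for atp-2 (adjusted p = 0.144) and -0.46 ± 0.26 for atp-1 (adjusted p = 0.181), so a difference between the genotypes was not called. atp-3, atp-4 and atp-5, subunits of the stalk, lay between -0.40 and -0.27 on JUb74 in unk59 worms and did not pass the test there.

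**Figure D4:**
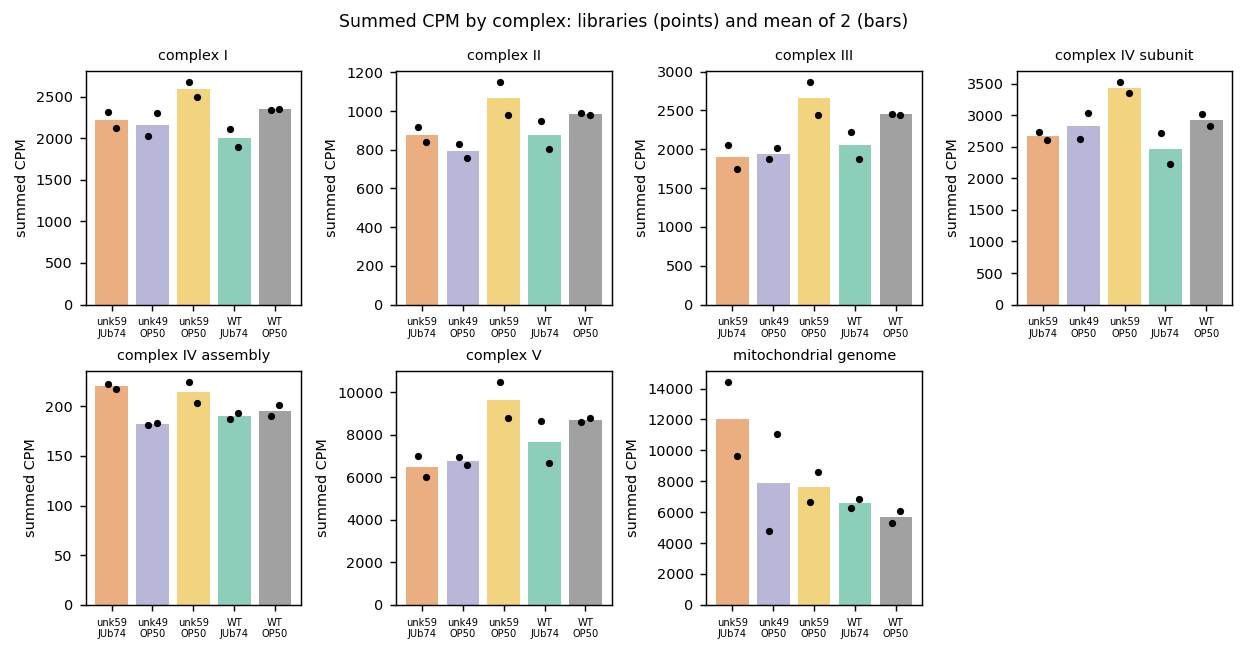
Summed CPM of the members of each complex and of the protein genes of the mitochondrial genome, with points for the 2 libraries of each group and bars at their mean. Complexes III and V are lower in unk59 worms on JUb74 and unk49 worms on OP50 than in both OP50 groups of unk59 and wild type. Wild-type worms on JUb74 also lie below those OP50 groups for complex III (2226 and 1881 CPM). For complex V they have an uneven pair (8636 and 6671.5 CPM). The mitochondrial genome has its highest library in unk59 worms on JUb74 and an uneven pair in unk49 worms.

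On JUb74 against OP50 most members had a small negative log2 fold change in both genotypes. Of the 43 tested, 3 were called lower in wild-type worms (6.29% of all genes) and 13 in unk59 worms (26.3% of all genes). In wild-type worms 39 of the 43 tested members had a negative log2 fold change, with a median of -0.22 against -0.00 for all genes. Without the second unk49 library, which shares only the fit, the members' median was -0.35 and that of all genes -0.13. In unk59 worms 34 of 43 were negative, with a median of -0.27 against 0.08 for all genes. When at least 10 reads were required in every library, these medians were -0.10 and 0.01. The 35 members that are neither duplicated nor cox-19 lay between -0.35 and 0.11 in wild-type worms, with 0 called, and between -0.67 and 0.22 in unk59 worms, with 9 called lower (26.3% of all genes were called lower). Of the 13 falls called in unk59 worms, 6 held under all 8 other settings: gas-1, sdha-1, ucr-1, ucr-2.2, atp-1 and atp-2. All 4 rises held under them: nduf-2.2, sdha-2, ucr-2.3 and cox-19.

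On OP50 the members' medians were small for both alleles. In unk59 worms 38 of 43 members had a positive log2 fold change against wild type, with a median of 0.17 against 0.04 for all genes and 0 members called. In unk49 worms 30 of 43 were negative, with a median of -0.13 against 0.11 for all genes. Set against unk59, unk49 had 38 of 43 members lower, with a median of -0.33 against 0.03 for all genes. Of the 11 falls called there, 3 held under all 8 other settings: gas-1, sdha-1 and ucr-2.2. With upper-quartile scaling the members' median was -0.33 for unk49 against wild type and -0.49 for unk49 against unk59, and 13 and 26 members were called lower. The medians of all genes were then -0.09 and -0.12, with 4057 and 4666 of 15950 genes called lower. With at least 10 reads required in every library the members' medians were -0.05 and -0.15, against 0.03 and 0.002 for all genes. Upper-quartile scaling also changed the split over all genes for unk49 against wild type, to 3649 higher and 4057 lower, where TMM scaling gave 4345 higher and 3047 lower.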

How the data were processed

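The authors deposited raw gene counts (whole read pairs, not normalized) in 10 tables linked to 5 samples, 2 tables each. Per the submitters' processing notes STAR 2.7.10, DESeq2 and the build WBcel235 were used, and the layout is that of STAR's gene counts. The labels call the kit strand-specific, but each gene's reads fell about equally in the 2 strand columns (median 49.8% to 50.1%), so the unstranded counts were used and opposite-strand overlaps are not separated. A further table, linked to no sample and with 3 columns of values, was not used, and unk49 on JUb74 was not analysed here. The tables of a group differed far beyond sampling noise (chi-square per degree of freedom 19.8 to 88.9, threshold 1.1), so each entered as a library. Summary rows stayed out of library sizes: unmapped pairs made up 2.02% to 2.61%, multimapping 2.28% to 3.49%, outside genes 0.350% to 0.537% and ambiguous 1.72% to 1.85%.

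All genes were fitted in R 4.3.3 with edgeR 4.0.16 (TMM scaling, filterByExpr, a group-means model over all 5 groups, two-sided robust quasi-likelihood F tests), and p-values were adjusted by Benjamini-Hochberg across 15950 genes, calling those under 0.05. With 2 libraries per group, all groups shared the estimate of spread, a biological coefficient of variation of 23.4%. Standard errors (SE) come from the log2 fold change and F. TPM used union exon lengths from Ensembl 115 (WBcel235), in which 46603 of 46778 IDs were found. The 12 protein genes of the mitochondrial genome were named by position. Alternatives were RLE and upper-quartile scaling, no filter or at least 10 reads in every library, DESeq2 1.42.0, a strand column, a fit of only the groups compared, the library number as a block, and each library left out. The test was checked on simulated data only for JUb74 in wild-type worms, with changes set in a small part of the genes. That check does not cover comparisons in which many genes change.

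The members, gene lists, markers and alternatives were chosen with earlier results of these data known. The rule for named genes gave in full gas-1, mev-1, isp-1, cyc-1, the sdh genes and, per comparison, the 3 rising and 3 falling members with the largest called fold change whose libraries did not overlap. Other members named with values were chosen after their values were seen. Sequences were not used here.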

Additional observations from a re-analysis of the deposited data

Results flagged for a closer look

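The response to JUb74 differed between unk59 and wild-type worms for 3 members by the test of the difference itself. The interaction, on the log2 scale and with edgeR's quasi-likelihood test, was 3.004 for nduf-2.2, 3.30 for sdha-2 and 5.14 for ucr-2.3. In each case both unk59 libraries on JUb74 lay above both unk59 libraries on OP50, while both wild-type libraries on JUb74 lay below both wild-type libraries on OP50. The summed germline markers moved the same way, with 434 and 716 CPM on JUb74 against 92.2 and 40.4 CPM on OP50 in unk59 worms, and 48.7 and 103.8 CPM on JUb74 against 290.2 and 347 CPM on OP50 in wild-type worms. Their part in the difference was not tested.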

How the results depend on the processing

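For JUb74 in unk59 worms the 17 calls (4 higher, 13 lower) became 10 (4 higher, 6 lower) under RLE scaling, upper-quartile scaling, no filter, at least 10 reads in every library, DESeq2 and the strand column. With a library left out, that count was 6 to 22. For unk49 against unk59 on OP50 the 14 calls (3 higher, 11 lower) became 9 under RLE scaling, no filter and DESeq2, 8 with at least 10 reads in every library, 7 with only the groups compared and 29 (3 higher, 26 lower) under upper-quartile scaling, with 6 to 19 when a library was left out. For unk49 against wild type on OP50 the 9 calls (4 higher, 5 lower) became 16 (3 higher, 13 lower) under upper-quartile scaling, where the members' median moved to -0.33, and 3 to 15 with a library left out. JUb74 in wild-type worms gave 0 to 3 calls, unk59 against wild type on JUb74 5 to 12 and the interaction 3 to 5 with a library left out. Fitted on only the groups compared, the interaction called 5. For unk59 against wild type on OP50, 1 member was called without a filter, 2 with DESeq2, and 0 with any library left out. The calls over all genes moved with some settings too. For JUb74 in unk59 worms they were 9545 of 15950 genes under TMM and 9435 under RLE scaling. With at least 10 reads in every library they were 6194 of 11570. For unk49 against unk59 on OP50 they were 8616 of 15950 under TMM and 9018 under upper-quartile scaling. With only the groups compared they were 5972 of 14747. Leaving out a library also moved the calls over all genes. The causes were not tested.

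Under RLE scaling the median of all genes was 0.13 for unk49 against unk59 on OP50 and 0.11 for the interaction. Upper-quartile scaling moved it to -0.09 for unk49 against wild type and -0.12 for unk49 against unk59, where TMM gave 0.11 and 0.03. The next count covers only nduf-2.2, sdha-2, ucr-2.3, gas-1, sdha-1 and ucr-2.2, in the comparisons for which the rule named them. Of their values under the alternatives, 480 kept direction and call, 24 kept the direction but lost the call and 0 reversed. Other members named with values are not in this count, and many of their calls were lost, as given with each. The library number served as the replicate block. Correlations of same-numbered libraries lay between -0.40 and 0.35, so the numbers were not taken as pairs. The block lost the call of sdha-2 for JUb74 in wild-type worms (adjusted p = 0.0642), and the counts of members called with the block were 2 and 12 for JUb74 in wild-type and unk59 worms, 0 for unk59 and 9 for unk49 set against wild type on OP50, 9 for unk59 against wild type on JUb74, 14 for unk49 against unk59 and 3 for the interaction.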

Other observations

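A list of 19 further respiratory chain and ATP synthase genes had 7 called higher and 2 lower on JUb74 in unk59 worms. It had 10 higher and 0 lower in unk59 against wild type on JUb74. In unk49 against wild type on OP50 it had 3 higher and 0 lower. Of all genes, 33.5%, 33.0% and 27.2% were called higher in these comparisons and 26.3%, 26.1% and 19.1% lower. From this list asb-1, asb-2 and asg-2 were chosen after their values were seen. asb-1 on chromosome III and asb-2 on the X encode forms of subunit b of ATP synthase, and asb-1 is known as the germline form. asb-1 had 118.9 and 174 CPM in unk59 worms on JUb74, 198 and 189 CPM in unk49 worms on OP50, 63.3 and 60.8 CPM in unk59 worms on OP50, 39.5 and 37.996 CPM in wild-type worms on JUb74 and 80.02 and 80.07 CPM in wild-type worms on OP50. Its log2 fold change on JUb74 was 1.24 in unk59 and -1.05 in wild-type worms, with an interaction of 2.28, all called by edgeR at an adjusted p of 0.05. asb-2 fell by 0.66 on JUb74 in unk59 worms, and asg-2, which encodes subunit g and is also X-linked, by 0.53.

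Of the 12 protein genes of the mitochondrial genome, 11 were tested, and 3 were higher in unk49 than in wild-type worms on OP50 (27.2% of all genes). On JUb74, 5 were higher in unk59 than in wild-type worms (33.0% of all genes): ND1 (1.05), ATP6 (1.09), ND2 (2.52), ND3 (2.21) and ND5 (1.496). ATP6, a membrane subunit of complex V, had 1044 and 679.7 CPM in unk59 worms on JUb74, 404 and 946 CPM in unk49 worms on OP50, 557 and 558 CPM in unk59 worms on OP50, 350.0 and 462 CPM in wild-type worms on JUb74 and 368 and 454 CPM in wild-type worms on OP50. The second unk49 library was above both wild-type pairs and the first lay within their range.

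Lists around the chain gave these counts, with called genes higher and lower. Of 8 coenzyme Q genes, 5 were higher and 0 lower in unk59 against wild type on JUb74, where 33.0% of all genes were called higher and 26.1% lower, led by coq-5, a methyltransferase, at 1.35. Of 69 genes of the mitochondrial ribosome, 26 were higher and 1 lower in that comparison. Of 17 genes of the TCA cycle and pyruvate dehydrogenase, 2 were higher and 5 lower on JUb74 in unk59 worms (33.5% and 26.3% of all genes), and 0 higher and 5 lower in unk49 against wild type on OP50 (27.2% and 19.1% of all genes). Among the falls, idhb-1 and suca-1 are X-linked and fell in both comparisons. Of 7 genes of the mitochondrial stress response, 2 were higher and 1 lower on JUb74 in unk59 worms, in unk59 against wild type on JUb74 and in the interaction. Of all genes, 33.5%, 33.0% and 23.3% were called higher in these comparisons and 26.3%, 26.1% and 19.97% lower. In each of the 3 comparisons the protease gene clpp-1 and ubl-5 were higher and dve-1, which is X-linked, was lower. The chaperone gene hsp-6 was called in 0 of the 7 comparisons.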
